A study of Mus musculus with 12 samples.

Results

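The T cell receptor complex and its coreceptors were followed across 12 mouse tumour arrays through 10 named genes, namely the CD3 chains Cd3d, Cd3e, Cd3g and Cd247, the coreceptors Cd4, Cd8a and Cd8b1, the kinases Lck and Zap70, and the adhesion receptor Cd2. A gene was taken up when an array row carried its symbol and no other in the platform annotation, and 8 of the 10 had exactly 1 such row, out of 22180 genes with a row of their own. Cd247 and Lck had no row with that single symbol and are named only. All 8 measured genes were tested, because each exceeded the median of the whole table, 4.93 on the log2 scale, on at least 3 arrays. Cd3e, Cd3g, Cd4 and Cd8b1 lay above that limit on all 12 arrays, Cd8a and Cd2 on 9, Zap70 on 6 and Cd3d on 5. The 5 arrays of Cd3d were all from fatty liver, so Cd3d was tested only through the groups in which it was high, and its difference between livers is given as a description within the counts below. Of the 6 arrays of Zap70 only 1 was from healthy liver. Zap70 therefore also needed fatty liver arrays to be tested, and its part in the counts is a description as well.

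The samples were colorectal cancer tissue that had been grown in the liver of mice, with 3 arrays in each of 4 groups: fatty liver with anti-VEGF treatment, fatty liver with vehicle, healthy liver with anti-VEGF treatment and healthy liver with vehicle. VEGF is a growth factor for blood vessels, and the series' design text calls the treatment antiangiogenic and gives 3 mice per group. The tumour line, the mouse strain, sex and age, the means by which the liver was made fatty, and the anti-VEGF agent and its dose are stated in none of the labels. Each array measured total RNA of a whole tumour sample, so the values do not come from sorted T cells.

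A T cell recognises its target through the T cell receptor, whose antigen-binding chains have no signalling part of their own. Signals pass through the CD3 chains that travel with them to the surface; the coreceptors CD4 and CD8 bind the MHC molecules of the target cell and bring the kinase Lck, which phosphorylates the CD3 chains, and ZAP-70 then docks there and passes the signal on. CD4 marks helper and regulatory T cells and also occurs on some myeloid cells, CD8 (an alpha and a beta chain) marks killer T cells, the alpha chain also occurs on some dendritic cells, and CD2 tightens the contact between the T cell and its partner on T cells and NK cells.

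Cd3g, Cd3d and Cd3e lie close to each other on chromosome 9, and their promoter windows are shown because these 3 measured CD3 genes are the core of the comparisons that follow, with the window of the coreceptor gene Cd8a on chromosome 6 beside them. Each window runs from 250 bases before to 50 bases after a start site and comes from RefSeq on build GRCm38.p6, printed on the strand of the gene. Windows were given for 7 of the 10 genes, of which 5 were measured. The windows are chr9:44980382-44980681 on the minus strand for Cd3g, chr9:44981536-44981835 on the plus strand for Cd3d, chr9:45009562-45009861 on the minus strand for Cd3e and chr6:71373177-71373476 on the plus strand for Cd8a. Capitals mark matches to 4 motifs searched on both strands: AGGAAG for the ETS family, TGTGGT for RUNX, AGATAA for GATA and TATAAA for a TATA box.
Cd3g: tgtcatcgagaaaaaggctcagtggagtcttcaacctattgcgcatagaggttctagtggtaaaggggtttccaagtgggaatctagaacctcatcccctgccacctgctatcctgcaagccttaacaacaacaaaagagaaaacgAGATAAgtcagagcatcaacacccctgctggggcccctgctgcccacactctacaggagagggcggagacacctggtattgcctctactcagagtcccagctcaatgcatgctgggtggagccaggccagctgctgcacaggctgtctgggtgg
Cd3d: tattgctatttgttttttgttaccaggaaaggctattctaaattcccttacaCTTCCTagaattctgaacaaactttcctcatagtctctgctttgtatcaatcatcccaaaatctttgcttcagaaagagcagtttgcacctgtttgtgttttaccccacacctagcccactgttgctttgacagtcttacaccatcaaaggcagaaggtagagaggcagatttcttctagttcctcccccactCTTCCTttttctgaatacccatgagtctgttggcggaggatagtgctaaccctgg
Cd3e: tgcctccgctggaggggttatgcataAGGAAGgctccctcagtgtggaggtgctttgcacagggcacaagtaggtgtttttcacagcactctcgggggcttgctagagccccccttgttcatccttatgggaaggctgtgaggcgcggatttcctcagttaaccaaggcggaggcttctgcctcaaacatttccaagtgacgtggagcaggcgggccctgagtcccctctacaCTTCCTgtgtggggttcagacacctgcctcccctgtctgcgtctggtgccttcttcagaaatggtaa
Cd8a: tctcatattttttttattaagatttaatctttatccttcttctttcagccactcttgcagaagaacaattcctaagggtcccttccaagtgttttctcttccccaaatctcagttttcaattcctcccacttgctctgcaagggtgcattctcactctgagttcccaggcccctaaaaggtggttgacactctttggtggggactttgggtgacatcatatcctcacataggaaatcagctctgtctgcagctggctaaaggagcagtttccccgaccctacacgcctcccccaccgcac
The start sites of Cd3g and Cd3d lay 1355 bases apart and pointed in opposite directions. Cd3d held AGGAAG on the reverse strand at -198 and -5 from its start site, and Cd3e held it at -224 on the printed strand and at -17 on the reverse strand. Cd3g held AGATAA at -104, and the Cd8a window held none of the 4 motifs. Such short motifs are common: of 32851 RefSeq windows of the same length, 35.4% held AGGAAG, 16.8% TGTGGT, 11.2% AGATAA and 13.6% TATAAA. A match is a description of the letters in a window, and no binding was measured here.

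Some arrays stood apart from the others of their group, and this touches every comparison. Over all tested genes, 2 arrays of a group differed with an SD of 0.148 to 0.156 for healthy liver with anti-VEGF and of 0.163 for vehicle arrays 1 and 3 of either liver, against 0.391 to 0.636 for every other pair within a group. Arrays closer than an SD of 0.2 were therefore also averaged and counted as 1 sample, which left 3 samples for fatty liver with anti-VEGF, 2 for fatty liver with vehicle, 1 for healthy liver with anti-VEGF and 2 for healthy liver with vehicle; counts under this setting follow each main count. Xist, which is transcribed from the inactive X chromosome of female cells, ranged from 8.10 to 10.58 on vehicle arrays 1 and 3 of both livers and from 3.89 to 4.32 on the other 8 arrays. Of 11 colorectal epithelium markers, 5 (Epcam, Krt19, Krt20, Cdx1 and Vil1) lay below the limit on every array, while Krt8, a keratin, ranged from 9.12 to 10.82. Of 8 hepatocyte markers, 6 lay below the limit on every array, with albumin (Alb) between 3.24 and 4.07. The mean of 7 endothelial markers was 8.65 on healthy liver vehicle array 2, against 5.28 and 5.30 on the other healthy liver vehicle arrays.

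**Figure D1:**
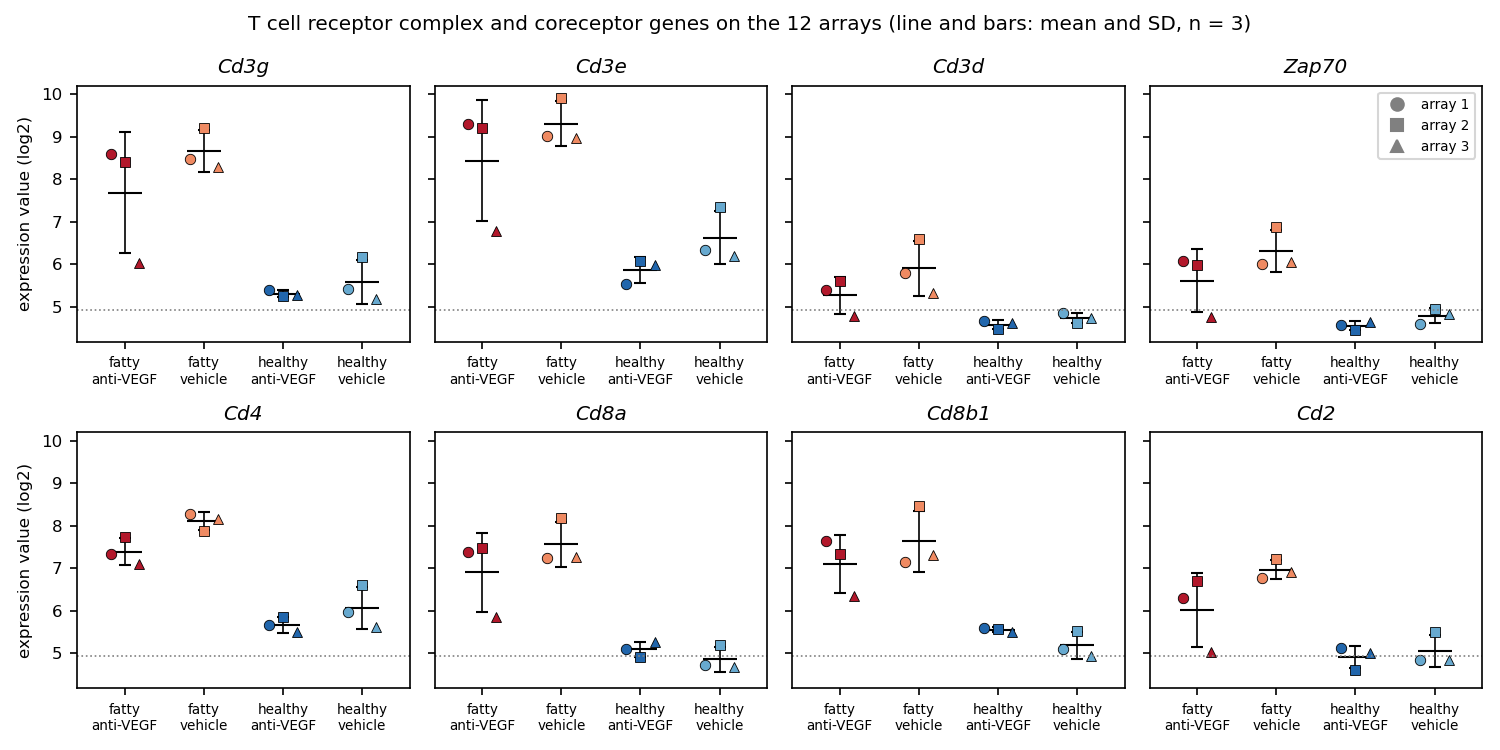
Log2 expression value (vertical axis) of each measured gene on every array, by group (horizontal axis, 3 arrays each); horizontal lines and bars are the mean and SD, and the dotted line is the limit of 4.93. Fatty liver vehicle arrays sit above all healthy liver vehicle arrays in every panel, and fatty liver anti-VEGF array 3 (triangle) lies below the other fatty liver anti-VEGF arrays in every panel, least so for Cd4.

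The first comparison asks whether T cell receptor genes differed between tumours of fatty and of healthy liver without anti-VEGF. Under vehicle, all 8 measured genes were higher in fatty liver tumours, from at least 1.96-fold (Cd3d) to 8.41-fold (Cd3g). The CD3 chains, both coreceptors, ZAP-70 and CD2 thus all stood on the same side. The test was limma over 13286 genes, with Benjamini-Hochberg adjustment and a threshold of 0.05 on the adjusted p. All 8 passed as higher, or 7 of 7 without Cd3d, which had met the filter on low values through fatty liver arrays only. Those 7 still include Zap70, which had 1 healthy liver array above the limit and also needed fatty liver arrays to meet the filter. In this comparison 49.6% of all tested genes passed in either direction, 19.2% passed as higher and 30.4% as lower, so these counts stand beside a large background. The median log2 difference was 2.24 over the 8 genes and -0.12 over all tested genes. In tumour tissue, fewer T cells and less RNA of a gene per T cell cannot be told apart.

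Cd3g (row 17526456), the CD3 gamma chain, had log2 values of 8.48, 9.21 and 8.29 on fatty liver vehicle arrays 1, 2 and 3, against 5.42, 6.18 and 5.18 on the healthy liver vehicle arrays. The groups were 2.12 apart at their nearest arrays. Its difference of 3.07 ± 0.57 (SE) was the highest among the 8 genes (limma adjusted p = 0.0022). Cd3e (row 17526464), the epsilon chain that pairs with either of the other CD3 chains, had 9.03, 9.92 and 8.98 on fatty liver vehicle arrays and 7.34 as the highest of 6.35, 7.34 and 6.19 on healthy liver vehicle arrays. It differed by 2.68 ± 0.60 (limma adjusted p = 0.0051), and its groups did not overlap either. In both genes, array 2 was the highest of its group in either liver.

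Cd3d (row 17516691), the delta chain, stayed near the limit. It had 5.79, 6.61 and 5.32 on fatty liver vehicle arrays and 4.86, 4.61 and 4.74 on healthy liver vehicle arrays, all of the second set below 4.93. Its difference was 1.17 ± 0.29 (limma adjusted p = 0.00844), and because the healthy liver arrays lay below the limit the fatty liver level was at least 1.96-fold higher. Zap70 (row 17211867), the kinase that docks on phosphorylated CD3 chains, had 6.01, 6.88 and 6.05 on fatty liver vehicle arrays and 4.60, 4.95 and 4.83 on healthy liver vehicle arrays. The difference was 1.52 ± 0.33 (limma adjusted p = 0.0045), with no overlap and with 1 healthy liver array above the limit.

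Cd4 (row 17470960), the helper T cell coreceptor, had 8.28, 7.87 and 8.16 on fatty liver vehicle arrays, against 5.97, 6.60 and 5.62 on healthy liver vehicle arrays. It had the smallest adjusted p of the 8 genes, 0.00023 in limma, with a difference of 2.04 ± 0.24. Unlike the CD3 genes, Cd4 was lowest on array 2 of the fatty liver vehicle group. Cd8a (row 17459482), the CD8 alpha chain, had 7.25, 8.17 and 7.26 on fatty liver vehicle arrays and 4.72, 5.20 and 4.68 on healthy liver vehicle arrays. Cd8b1 (row 17459474), the beta chain, had 7.15, 8.46 and 7.31 on fatty liver vehicle arrays and 5.10, 5.53 and 4.93 on healthy liver vehicle arrays. The CD8 differences were 2.70 ± 0.40 for Cd8a and 2.45 ± 0.38 for Cd8b1 (limma adjusted p = 0.000707 and 0.0008), and neither gene's groups overlapped. Cd2 (row 17408497) had 6.78, 7.21 and 6.91 on fatty liver vehicle arrays and 4.85, 5.50 and 4.84 on healthy liver vehicle arrays, a difference of 1.90 ± 0.37 (limma adjusted p = 0.00254). In Cd8a and in Cd2, 1 of the 3 healthy liver vehicle arrays lay above the limit.

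All 8 genes had every fatty liver vehicle array above every healthy liver vehicle array, a pattern found in 23.6% of tested genes. With nearly alike arrays averaged, 2 of the 8 genes passed, Cd4 (1.84, limma adjusted p = 0.0398) and Cd8b1 (2.57, limma adjusted p = 0.0491), against 4.47% of all genes as higher. Without the 4 arrays high in Xist, array 2 of either liver was the lone vehicle array, assumed to vary like the other groups. All 8 differences remained positive, from 1.27 (Cd4) to 3.04 (Cd3g). With a lone vehicle array per liver these are sizes only, and this fit cannot decide whether the liver difference held without the arrays high in Xist. Cd3d (1.995) had entered this fit too through fatty liver arrays only, and its remaining healthy liver vehicle array, at 4.61, lay below the limit.

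**Figure D2:**
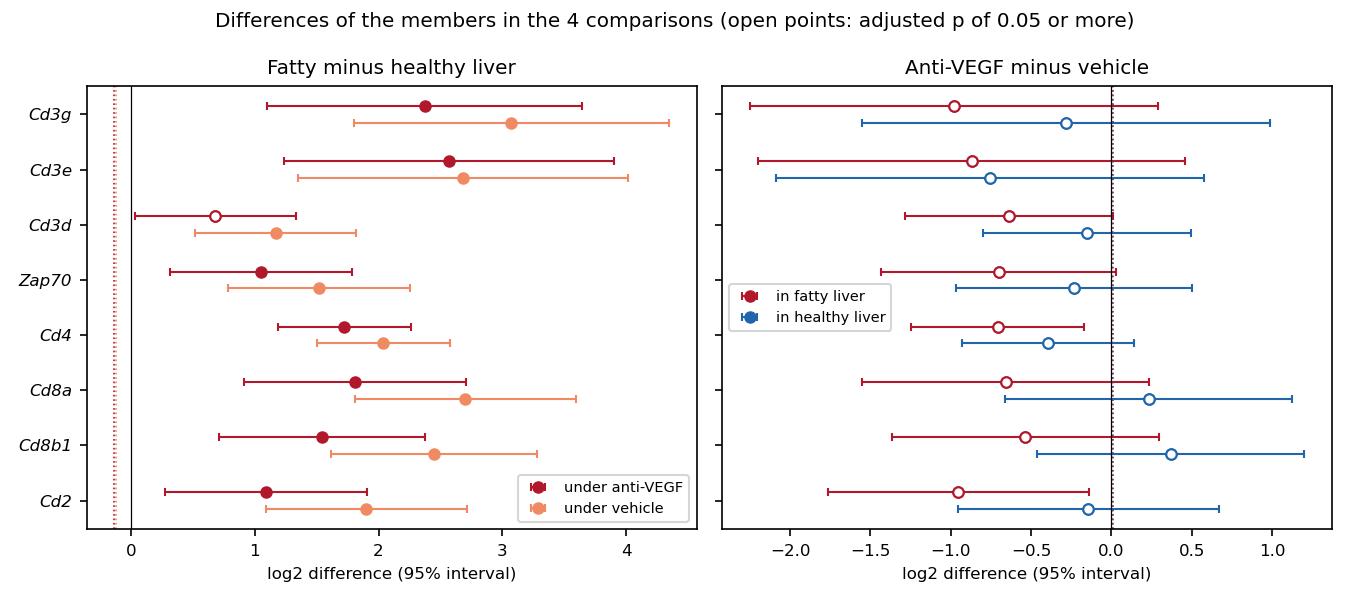
Log2 differences with 95% intervals (horizontal axis) for each gene (vertical axis), fatty minus healthy liver on the left and anti-VEGF minus vehicle on the right; open points did not pass an adjusted p of 0.05, and dotted lines are the medians of all tested genes. In the left panel every point but Cd3d under anti-VEGF is filled, and in the right panel every point is open.

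The same question was asked with treatment. With anti-VEGF, 7 of the 8 genes were higher in fatty liver tumours, and Cd3d did not pass. The largest difference was 5.93-fold (Cd3e), and the fatty liver mean of Zap70 was 1.60-fold above the limit. Zap70 had needed fatty liver arrays to meet the filter, so its part in this count is a description. Here 45.8% of all tested genes passed in either direction, 18.2% passed as higher and 27.6% as lower. The median difference was 1.63 over the 8 genes and -0.13 over all tested genes. The spread within the fatty liver group was wide, because its array 3 lay far below arrays 1 and 2 in most of these genes.

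Cd3e had 9.30, 9.22 and 6.80 on fatty liver anti-VEGF arrays 1, 2 and 3, against 5.53, 6.09 and 5.99 on healthy liver anti-VEGF arrays, and differed by 2.57 ± 0.60 (limma adjusted p = 0.00696). Cd3g had 8.60, 8.40 and 6.04 on fatty liver anti-VEGF arrays and 5.40, 5.25 and 5.28 on healthy liver anti-VEGF arrays, and differed by 2.37 ± 0.57 (limma adjusted p = 0.00817). In both CD3 genes array 3 of the fatty liver group lay nearer to the healthy liver arrays than to arrays 1 and 2 of its own group, without overlapping the healthy liver range. Cd3d had 5.41, 5.62 and 4.78 on fatty liver anti-VEGF arrays and 4.67, 4.47 and 4.61 on healthy liver anti-VEGF arrays. Its difference of 0.68 ± 0.29 missed the threshold (limma adjusted p = 0.0773), with a 95% interval of 0.04 to 1.33 before adjustment. Zap70 had 6.08, 5.99 and 4.76 on fatty liver anti-VEGF arrays and 4.58, 4.45 and 4.65 on healthy liver anti-VEGF arrays, and differed by 1.05 ± 0.33 (limma adjusted p = 0.0259). Its healthy liver arrays all lay below the limit, and its fatty liver mean was 1.60-fold above the limit. That mean includes array 3, which itself lay below the limit, so the fold is not a strict bound.

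Cd4 had 7.35, 7.74 and 7.10 on fatty liver anti-VEGF arrays and 5.66, 5.86 and 5.49 on healthy liver anti-VEGF arrays. With 1.72 ± 0.24 it again had the smallest adjusted p of the 8 genes (limma, 0.000423), and its nearest arrays were 1.24 apart. Cd8a had 7.38, 7.49 and 5.85 on fatty liver anti-VEGF arrays and 5.09, 4.92 and 5.27 on healthy liver anti-VEGF arrays. Cd8b1 had 7.64, 7.33 and 6.34 on fatty liver anti-VEGF arrays and 5.61, 5.56 and 5.50 on healthy liver anti-VEGF arrays. The CD8 alpha and beta genes differed by 1.81 ± 0.40 and 1.55 ± 0.38 (limma adjusted p = 0.00541 and 0.00836), each without overlap. Cd2 had 6.30, 6.70 and 5.03 on fatty liver anti-VEGF arrays and 5.14, 4.62 and 4.999 on healthy liver anti-VEGF arrays. It passed (1.09 ± 0.37, limma adjusted p = 0.0331), although fatty liver array 3 fell inside the healthy liver range.

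Under anti-VEGF, 7 of the 8 genes had all fatty liver arrays above all healthy liver arrays, the exception being Cd2, beside 21.9% of tested genes. For Cd3d and Zap70 this gap, 0.11 each, lay wholly below the limit and has no order to read, with fatty liver array 3 at 4.78 for Cd3d and 4.76 for Zap70. Over all 12 arrays, Cd4, Cd8a and Cd8b1 kept every fatty liver array above every healthy liver array, as did 14.3% of tested genes. In Cd3e, Cd3g, Zap70 and Cd2, fatty liver anti-VEGF array 3 lay below the highest healthy liver array. For Cd3d these values, 4.78 and 4.86, were both below the limit and again have no order to read. With nearly alike arrays averaged, none of the 8 genes passed under anti-VEGF (smallest limma adjusted p = 0.0625, for Cd4), beside 3.67% of genes as higher; the healthy liver group then held 1 sample, assumed to vary like the others. Zap70 and Cd2 also lost the call when 1 array was left out, either any of healthy liver with anti-VEGF or number 1 or 2 of fatty liver with anti-VEGF (limma adjusted p = 0.055 to 0.126 for Cd2 and 0.0562 to 0.0978 for Zap70). Without fatty liver anti-VEGF array 3, Cd3d passed as well (0.93, limma adjusted p = 0.0227), and it also passed without fatty liver vehicle array 2 or 3.

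Next, anti-VEGF was set against vehicle within each liver. None of the 8 genes passed in either liver, with 0.00753% of all tested genes passing in fatty liver and 0% in healthy liver. In fatty liver tumours all 8 log2 differences were negative, between -0.98 (Cd3g) and -0.54 (Cd8b1), with limma adjusted p-values of 0.795 to 0.799. The lowest unadjusted p-values there belonged to Cd4, with a difference of -0.71 ± 0.24 (limma, 0.0144), and to Cd2, with -0.95 ± 0.37 (limma, 0.0256), and the other 6 were above 0.05. The median over the 8 genes was -0.71, against 0.01 over all tested genes. These sizes rested largely on fatty liver anti-VEGF array 3: without it the median was -0.22, the range was -0.56 (Cd4) to -0.05 (Cd3e), and no unadjusted p was below 0.05. Without fatty liver vehicle array 2 the range was -0.83 (Cd2) to -0.13 (Cd8b1). Only in Cd4 and Cd2 of the 8 did every fatty liver anti-VEGF array lie below every fatty liver vehicle array, as in 4.99% of tested genes. Cd4 had 7.35, 7.74 and 7.10 with anti-VEGF, against 8.28, 7.87 and 8.16 with vehicle, and Cd2 had 6.30, 6.70 and 5.03, against 6.78, 7.21 and 6.91.

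In healthy liver tumours the differences ran from -0.76 (Cd3e) to 0.37 (Cd8b1), and no unadjusted p was below 0.05. The CD8 genes were positive, Cd8a at 0.23 ± 0.40 and Cd8b1 at 0.37 ± 0.38, and the other 6 were negative, of which Cd3g and Cd2 turned to 0.011 and 0.075 without healthy liver vehicle array 2. The 95% intervals were wide, from -2.09 to 0.57 for Cd3e and from -0.47 to 1.20 for Cd8b1, so changes of these sizes were not detectable with 3 arrays a group. Arrays were also weighted in limma by their spread around the group means, which favours arrays that lie close together. Cd8b1 then passed in healthy liver (0.51, limma adjusted p = 0.0431), as did 4.4% of all tested genes as higher. With nearly alike arrays averaged instead, its difference was 0.28. The interaction, which asks whether the anti-VEGF difference was itself different between livers, was negative for all 8 genes, from -0.90 (Cd8b1) to -0.12 (Cd3e). None passed (limma adjusted p = 0.979 to 0.997), none was below 0.05 unadjusted, and 0% of all tested genes passed. Without fatty liver anti-VEGF array 3 the interaction was 0.71 for Cd3e and 0.12 for Cd3g, -0.05 for Zap70 and -0.32 for Cd2, and the median of the 8 genes was -0.21, against -0.59 with all arrays. Leaving out array 1 or array 3 of healthy liver under vehicle also made Cd3e positive (0.024 and 0.10), as did leaving out array 2 of fatty liver under vehicle (0.19).

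Fatty liver anti-VEGF array 3 was placed on a scale from the mean of the healthy liver anti-VEGF arrays (0%) to the mean of fatty liver anti-VEGF arrays 1 and 2 (100%), as a description of 1 array. Cd2 stood at 7.31%, its healthy liver mean of 4.92 being at the limit, Cd3g at 23.0% and Cd3e at 27.3%. Zap70 and Cd3d were not placed, because array 3 and the healthy liver mean both lay below the limit. The CD8 chains were further along, at 32.1% for Cd8a and 40.7% for Cd8b1, and Cd4 was at 76.3%. On the same array the mean of 9 NK cell markers was 4.54, below the limit like its healthy liver mean, that of 8 dendritic cell markers stood at 33.2% and that of 12 macrophage markers at 89.2%. The coreceptor Cd4 thus lay nearer to the macrophage list than to Cd3g and Cd3e on this scale.

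**Figure D3:**
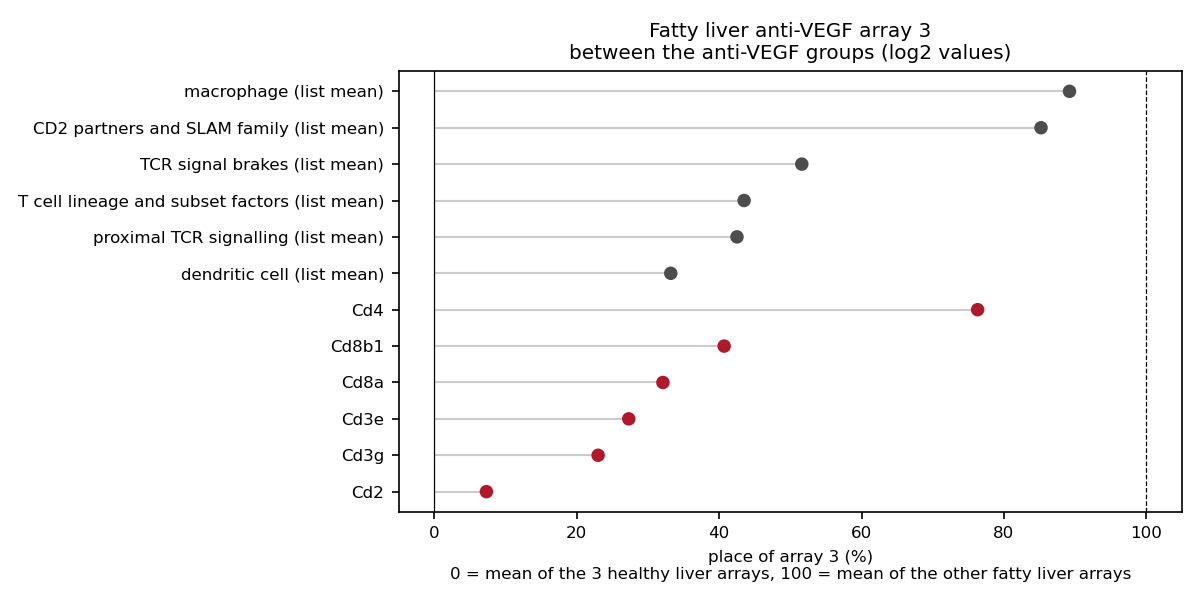
Place of fatty liver anti-VEGF array 3 in percent (horizontal axis) for each gene (red) and for the mean of each gene list (grey), where 0 is the mean of the healthy liver anti-VEGF arrays and 100 the mean of fatty liver anti-VEGF arrays 1 and 2. Cd4 at 76.3 and the macrophage list at 89.2 lie towards the right, and Cd2 at 7.31 lies furthest to the left. Items below the limit both on array 3 and in the healthy liver mean are left out.

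The members also varied together within groups. After each group's mean was subtracted, the 21 pairs of genes without Cd4 had Pearson r between 0.591 and 0.976 over the 12 arrays, and the 7 pairs with Cd4 had r between -0.06 and 0.53. Before that step the ranges were 0.885 to 0.987 for pairs without Cd4 and 0.792 to 0.927 for pairs with it, which include the differences between groups. The genes share the same 12 arrays, and nearly alike arrays are among them, so these are descriptions. Cd8a and Zap70 stood closest (0.98), and Cd4 and Cd3d furthest apart (-0.06). Cd3d lay above the limit on only 5 of the 12 arrays and Zap70 on only 6. The r values of these genes thus rest partly on values below the limit, which have no order to read.

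**Figure D4:**
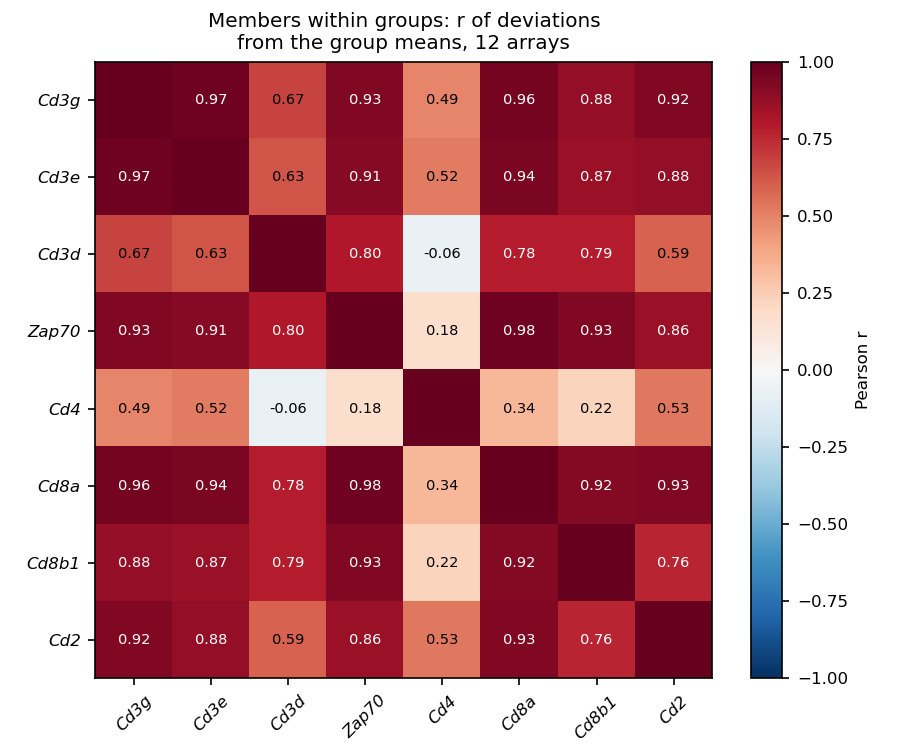
Pearson r between each pair of measured genes after subtracting group means, over 12 arrays; rows and columns are genes and colour gives r. The row of Cd4 holds the palest cells, from -0.06 to 0.53, while all other pairs lie between 0.59 and 0.98. Cells of Cd3d and Zap70 rest partly on values below the limit.

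Whether CD3 and coreceptor genes shifted by different amounts between livers was tested on the difference of 2 rows within each array, over 3 pairs, by exact two-sided permutation within treatment, 400 arrangements with a smallest possible p of 0.005. Cd3e minus Cd4 was 1.95, 1.48 and -0.30 on fatty liver anti-VEGF arrays, 0.75, 2.05 and 0.82 on fatty liver vehicle arrays, -0.13, 0.22 and 0.50 on healthy liver anti-VEGF arrays and 0.37, 0.74 and 0.56 on healthy liver vehicle arrays. The shift of 0.75 towards Cd3e in fatty liver did not pass (exact p = 0.115, adjusted 0.173). Cd8a minus Cd4 shifted by 0.38 (exact p = 0.265, adjusted 0.265), and Cd8b1 minus Cd8a by -0.26 (exact p = 0.065, adjusted 0.173). One array decided this result: without fatty liver anti-VEGF array 3 the shifts were 1.08, 0.57 and -0.33, with adjusted exact p = 0.015, 0.035 and 0.035. With nearly alike arrays averaged the shifts were 0.83, 0.51 and -0.23. That setting left 1 healthy liver anti-VEGF sample and only 24 arrangements, which gave a pair little room to pass, so it cannot decide the question. Differences between rows include probe effects, so only the shift between livers was read.

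The genes that act next to the receptor were described from 4 further lists. Of 25 genes of proximal T cell receptor signalling, 21 were tested, and 14 were higher and 1 lower in fatty liver tumours under anti-VEGF, against 18 and 1 under vehicle. The median log2 difference was 1.16 under anti-VEGF and 1.67 under vehicle. Txk and Cd27 lay below the limit on every healthy liver array. They were tested only through fatty liver arrays, so their part in these counts is a description. Rasgrp1, the exchange factor that activates Ras in T cells, differed by 2.92 ± 0.30 under anti-VEGF and 2.81 ± 0.30 under vehicle. The exchange factor Vav1 differed by 3.19 ± 0.30 under anti-VEGF and 2.40 ± 0.30 under vehicle, and the adaptor Fyb by 2.58 ± 0.20 under anti-VEGF and 1.86 ± 0.20 under vehicle. Vav1 and Fyb also work in myeloid cells. The adaptors Lat (0.51 ± 0.51 under anti-VEGF and 0.75 ± 0.51 under vehicle) and Bcl10 (0.03 ± 0.13 and 0.18 ± 0.13) passed in neither comparison. The gene that was lower was Plcg1, a phospholipase of many cell types, at -0.55 ± 0.13 under anti-VEGF and -0.64 ± 0.13 under vehicle. With nearly alike arrays averaged, 4 genes were higher under anti-VEGF and 6 under vehicle. The anti-VEGF count was 9 without array 1 of healthy liver with anti-VEGF, and 9 again without array 1 or 2 of fatty liver with anti-VEGF.

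Among 15 brakes on receptor signalling, 14 were tested and 7 were higher in fatty liver under anti-VEGF (median 0.68) and 11 under vehicle (median 1.10). The phosphatase genes Ptpn22 and Ptpn6 differed by 2.65 ± 0.19 and 2.67 ± 0.26 under anti-VEGF and by 2.44 ± 0.19 and 2.04 ± 0.26 under vehicle; Ptpn6 encodes SHP-1, which all blood cells use. Sla, an adaptor that lowers receptor levels, differed by 2.70 ± 0.28 under anti-VEGF and 2.12 ± 0.28 under vehicle. Averaging nearly alike arrays left 3 under anti-VEGF and 6 under vehicle, and without fatty liver anti-VEGF array 3 the anti-VEGF count was 12. Cd5 and Cd6 stand in this list and in the signalling list. Sit1 and Lax1 lay below the limit on every healthy liver array, so they too were tested only through fatty liver arrays.

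Of 16 lineage and subset genes, 13 were tested, with 8 higher under anti-VEGF (median 0.81) and 10 under vehicle (median 1.14). The T cell markers Thy1 and Bcl11b, and Gata3, passed in neither comparison. Thy1 differed by 1.51 ± 1.005 under anti-VEGF and 1.14 ± 1.005 under vehicle. It had 9.94 on healthy liver vehicle array 2, against 5.605 and 5.77 on arrays 1 and 3 of that group. The fatty liver vehicle arrays, at 7.96, 8.905 and 7.88, lay between. Array 2 also enters the SE, which all groups share. Bcl11b differed by 0.53 ± 0.31 under anti-VEGF and 0.64 ± 0.31 under vehicle, and Gata3 by -0.01 ± 0.14 and -0.07 ± 0.14. Lef1 and Tox lay below the limit on every healthy liver array, so they were tested only through fatty liver arrays. Il7r, a receptor for a survival cytokine of T cells, differed by 3.74 ± 0.40 under anti-VEGF and 3.16 ± 0.40 under vehicle. The pan-leukocyte phosphatase Ptprc differed by 3.09 ± 0.34 under anti-VEGF and 2.59 ± 0.34 under vehicle, and Runx3, a factor of killer T cell identity, by 2.47 ± 0.40 under anti-VEGF and 2.59 ± 0.40 under vehicle. Averaging left 2 in either comparison, and the anti-VEGF count was 4 without array 1 of healthy liver with anti-VEGF, and 4 again without array 1 or 2 of fatty liver with anti-VEGF.

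The list of CD2 partners and the SLAM family held receptors that bind each other between blood cells. It also held adaptors inside the cell, Sh2d1a, Sh2d1b1, Cd2ap and Pstpip1. In all it had 11 listed and 9 tested genes. Of these, 8 were higher in fatty liver tumours under anti-VEGF (median 2.73) and 8 under vehicle (median 2.32), and 7 in either comparison after averaging. Cd48, the partner of CD2 in the mouse, had 9.91, 10.08 and 9.68 on fatty liver anti-VEGF arrays and 6.82, 6.85 and 7.02 on healthy liver anti-VEGF arrays. Its difference was 2.99 ± 0.28 under anti-VEGF and 2.44 ± 0.28 under vehicle. Cd244a, which also binds CD48, differed by 3.24 ± 0.26 under anti-VEGF and 2.92 ± 0.26 under vehicle. On fatty liver anti-VEGF array 3, where Cd2 itself stood at 7.31% of the way to the other fatty liver arrays, the mean of this list stood at 85.2%. All gene values in these 4 lists were judged by the same limma fit. Cd28, Pag1, Bcl11b, Satb1, Eomes and Slamf6 also had fewer than 3 healthy liver arrays above the limit. They needed fatty liver arrays to be tested, so their part in these counts is a description.

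Markers of other blood cells moved in the same comparisons. The NK cell markers Ncr1 and Gzma and the dendritic cell marker Flt3 lay below the limit on every healthy liver array. They were tested only through fatty liver arrays. The other tested NK cell markers, and the dendritic cell markers Itgae, Siglech and Batf3, had fewer than 3 healthy liver arrays above the limit. They too needed fatty liver arrays to be tested. The NK cell counts below, and the part of Flt3 and these dendritic cell markers in theirs, are therefore descriptions. Of 7 tested NK cell markers, 5 were higher in fatty liver under anti-VEGF (2 without fatty liver anti-VEGF array 1 or 2) and 7 under vehicle, and none in either comparison with nearly alike arrays averaged. The mean of the 9 measured NK cell markers was 7.14, 6.63 and 4.54 on fatty liver anti-VEGF arrays, 7.16 to 7.47 on fatty liver vehicle arrays, 4.14 to 4.26 on healthy liver anti-VEGF arrays and 4.34 to 4.53 on healthy liver vehicle arrays. Of 11 tested macrophage markers, 10 were higher under anti-VEGF (7 with averaging) and 10 under vehicle (5 with averaging). The macrophage mean was 10.62, 10.91 and 10.54 on fatty liver anti-VEGF arrays, 10.82 to 10.90 on fatty liver vehicle arrays, 8.71 to 8.75 on healthy liver anti-VEGF arrays and 8.91 to 9.77 on healthy liver vehicle arrays. Of 7 tested dendritic cell markers, 5 were higher under anti-VEGF and 6 under vehicle (2 with averaging in either comparison), and the anti-VEGF count was 2 without any 1 array of healthy liver with anti-VEGF, 2 without array 1 or 2 of fatty liver with anti-VEGF, and 3 without fatty liver vehicle array 3. Of 4 tested B cell markers, 2 were higher and 2 lower in either comparison (1 higher with averaging), and Ms4a1, which encodes CD20, lay below the limit on all arrays. Of the tissue markers, neither tested hepatocyte gene was higher in either comparison, and Apoa1 was lower under anti-VEGF. Kdr was the 1 endothelial gene of 5 tested that was higher under vehicle, a count of 0 to 2 when single arrays were left out, and Kdr and Pecam1 were higher under anti-VEGF. Of 6 tested colorectal epithelium markers, Cdh1 was higher and Krt8 and Krt18 lower in either comparison; Cdh1 lost its call under anti-VEGF without array 2 or 3 of healthy liver or array 1 or 2 of fatty liver. No hepatocyte, endothelial or colorectal marker passed with averaging. The part of these cell types in the differences of the T cell receptor genes was not tested.

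The genes outside the complex whose pattern was most like that of the CD3 mean (the mean of Cd3d, Cd3e and Cd3g) over the 12 arrays were Sh2d2a (Pearson r = 0.994), Gzmf (0.993), Cdh1 (0.991), Il2rb (0.991), Kmo (0.990), Arap2, B3gnt5 and Ms4a4b (0.989 each). Sh2d2a encodes an adaptor of T cells, Gzmf a granzyme and Il2rb a chain of the interleukin-2 receptor, while Cdh1 is E-cadherin and stands in the colorectal epithelium list. Sh2d2a had 8.19, 8.02 and 5.81 on fatty liver anti-VEGF arrays, 8.19, 8.82 and 8.17 on fatty liver vehicle arrays, 5.05, 5.33 and 5.23 on healthy liver anti-VEGF arrays and 5.32, 5.93 and 5.37 on healthy liver vehicle arrays. It had the same low fatty liver array 3 as the CD3 genes. Closest to Cd4 outside the complex were Tmem104 (0.983), Pf4 (0.979), Cd200r1 (0.978), Lgmn (0.978) and Hmga2-ps1 (0.977), of which Pf4 encodes a chemokine, Cd200r1 an inhibitory receptor of myeloid cells and Lgmn a lysosomal protease. Closest to Cd8b1 outside the complex, where its partner chain Cd8a had 0.987, were Emb (0.989), Stk10 (0.987), Riok3 (0.986), Cyrib (0.985) and Htr7 (0.984). Once group means were removed, Marchf7 (0.990), Csrnp1 (0.989), Btg1 (0.980), Mreg (0.978) and Lag3 (0.977) followed the CD3 mean most closely, and Lag3 is an inhibitory receptor of activated T cells. These r values were the highest among tested genes outside the complex, leaving out predicted, clone-named and receptor segment symbols, and the 12 arrays share 4 group means, so they carry no test.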

How the data were processed

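Total RNA of mouse tumour tissue was amplified, labelled with biotin and hybridised to single-colour whole-transcript arrays, per the labels' protocols, and the tool in the submitters' processing notes is Affymetrix Expression Console; how it summarised probes, and on which build, the labels do not say. The deposited values were read as log2 expression values from their range; the scale, any centring and the normalization are not stated, and the authors' column medians ranged from 4.88 to 4.99. No depth or counting error applies to arrays, and the number of arrays limits the precision.

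Of 41345 rows, 23521 had 1 gene symbol, 1814 several and 16010 none, and only the first were used. For 1082 genes with several rows the one with the highest mean was taken. Genes above the table median of 4.93 on at least 3 arrays were tested (13286 genes). A linear model with 1 mean for each of the 4 groups was fitted to all 12 arrays in limma 3.58.1 (R 4.3.3), with 8 residual and 2.40 prior degrees of freedom, and Benjamini-Hochberg adjustment over all tested genes at 0.05. The procedure was tested on simulated data with independent noise on every array, a setting that does not cover the nearly alike arrays. The median of the table is not a detection limit, and a group below it gives a bound only.

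The members and the lists were chosen with earlier results of these data known. Named were all members and, per further list, up to 4 genes with the smallest p in the comparison described, plus listed genes in counts of 5 or fewer; genes of like pattern were the 8 highest r to the CD3 mean and the 5 highest to Cd4, to Cd8b1 and to the CD3 deviations. Same-numbered vehicle arrays of both livers deviated together (r = 0.536, 0.701 and 0.549), but so did arrays 1 and 3 crosswise (0.553 and 0.574), and the other pairs of groups showed no such pattern throughout. Alternatives covered normalization, filter, row choice, variance model, array weights, replicate block, averaging, arrays high in Xist and leaving out each array.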

Additional observations from a re-analysis of the deposited data

How the results depend on the processing

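Quantile normalization, median centring, no filter, the mean of rows, trend and robust variance, and the replicate block each left 7 genes higher in fatty liver under anti-VEGF, 8 under vehicle and 0 in the other 3 comparisons; the fit of only the groups compared gave 6 under anti-VEGF and 8 under vehicle. Nearly alike arrays averaged gave 2 under vehicle, beside 4.47% of all tested genes as higher. Under anti-VEGF that setting left a lone healthy liver sample and cannot decide. Leaving out the 4 vehicle arrays high in Xist gave 6 under anti-VEGF, Cd3d among them, with no share over all genes computed. Under vehicle it left a lone array per liver, so only sizes are given above. Array weights gave 8 in either and 1 gene, Cd8b1, for anti-VEGF in healthy liver, where 4.4% of all tested genes passed as higher. These settings change the number or weight of samples. A stricter filter on 6 arrays left Cd3d untested. Leaving out each array in turn gave 5 to 8 calls under anti-VEGF, 8 to 8 under vehicle and 0 to 0 in the other 3. It gave shifts of 0.164 to 0.566 for Cd8a minus Cd4, -0.33 to -0.166 for Cd8b1 minus Cd8a and 0.518 to 1.08 for Cd3e minus Cd4. Signs turned only where no gene had passed, and the cause was not tested: for anti-VEGF in fatty liver, array weights gave 0.084 (Cd3d), 0.11 (Cd3e) and 0.13 (Cd8a); for the interaction they gave 0.31 (Cd3d), 0.55 (Cd3e) and 0.03 (Zap70); for anti-VEGF in healthy liver they gave 0.032 (Cd2). An alternative chosen after seeing the data left out healthy liver vehicle array 2 and fatty liver anti-VEGF array 3 together. There the interaction of Cd3e was 0.35, and the healthy liver difference was 0.011 for Cd3g and 0.075 for Cd2. Without the arrays high in Xist, the interaction of Cd4 was 0.46 and the healthy liver difference of Cd8a was -0.10. Single arrays left out gave -0.55 to 0.71 for the Cd3e interaction, -1.16 to 0.12 for the Cd3g interaction, and in healthy liver -0.49 to 0.011 for Cd3g and -0.26 to 0.075 for Cd2. The planned pair of Cd247 and Cd3e was not run, because Cd247 had no row with that single symbol. With 3 arrays a group and values near 4.93 for Cd3d and Zap70, small differences are not resolved.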
